A study of Mus musculus with 249 samples.

Results

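Multiplex-GAM libraries made with a large and with a small amplification kit were compared. Their 23 columns, which stand beside 226 columns of other experiments, are those of the 40 kb segregation table whose library names begin with LK, the prefix of the kit size experiment. The sample titles place 11 of them in the large kit and 12 in the small kit group. All 23 came from mouse embryonic stem cells of the 46C line, a 129/Ola line with a Sox1-GFP knock-in derived from E14tg2a, replated in serum-free medium before harvest and cut into cryosections of 220 nm. For each library 4 profiles were dissected into a cap, amplified with the Sigma WGA4 kit over 25 PCR cycles and turned into Nextera libraries, and no staining step is listed for either group. The series description gives an average of 3 nuclear profiles per library. The protocol text is the same for both groups, so the titles alone separate them, and what made a kit large or small is not given in the sources used here.

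Genome architecture mapping (GAM) reads the folding of chromosomes from thin slices of nuclei. Each slice, or nuclear profile, catches the stretches of chromatin that the knife happened to cross, and loci that lie close together in the nucleus are caught together more often than distant ones. The minute amount of DNA in a slice has to be amplified over the whole genome before sequencing, and a stretch of DNA that was in the slice but did not survive extraction or amplification is missing from the library. Because a slice crosses a chromatin fibre along a continuous path, the windows detected in a good library tend to form runs along the chromosome.

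The table gave 1 for a window detected in a library and 0 otherwise, for 68162 windows of mouse assembly mm9. Only libraries that passed the quality control of the authors were in it, and it kept no reads, so sequencing depth is unknown, and a window that was absent cannot be told from one with too few reads. The libraries with the fewest differences differed in 12% of windows, so none was a copy of another. Small-kit libraries lay in columns 1 and 2 of the plate and large-kit libraries in columns 3 and 4, except large kit replicate 1, which lay in column 2. Nothing in the labels says that libraries of a group came from separate cultures, so p-values measure the spread between tubes. Large kit replicates 8 and 11 both lay outside the range of the other 9 large-kit libraries in coverage, gap rate, adjacent correlation, mean run length and long-run coverage, and are given by name where a result rests on them.

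Large-kit libraries detected less of the genome than small-kit libraries. Coverage, the percentage of listed windows that were positive, ran from 5.54% through a median of 11.3% to 35.3% in the large kit and from 16.4% through 21.3% to 30.6% in the small kit. The ranges overlapped, since 8 large-kit libraries lay below every small-kit library and replicates 8 and 11 reached 25.5% and 35.3%. The means were 14.6% ± 8.92 (SD, n = 11) and 22.9% ± 4.50 (SD, n = 12), a difference of -8.25 percentage points (permutation p = 0.0106, adjusted p = 0.0199 over 15 measures of the libraries).

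The clearest difference was in how whole the detected stretches were. The gap rate, defined here as the percentage of windows called negative among those whose adjacent windows were both positive, was 14.9% at the lowest, 46.96% at the median and 55.7% at the highest in the large kit. In the small kit it was 12.03%, 18.1% and 22.9%. The 9 large-kit libraries other than replicates 8 and 11 lay between 33.3% and 55.7%, all above the highest small-kit library, whereas replicates 8 and 11, at 15.5% and 14.9%, lay inside the small-kit range. The means were 41.6% ± 14.6 (SD, n = 11) and 17.9% ± 3.36 (SD, n = 12), a difference of 23.7 points with a standard error of 4.51 (permutation p = 0.00011, adjusted p = 0.001). With coverage as a covariate the difference was 13.1 points (permutation adjusted p = 0.001). That fit shared 1 slope between the kits, and 8 large-kit libraries lay below every small-kit library in coverage. The value thus reaches beyond the coverages that the kits share. Large kit replicate 1, which shared plate column 2 with 6 small-kit libraries, had a gap rate of 50.2%, while those 6 lay between 13.6% and 22.9%.

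**Figure D1:**
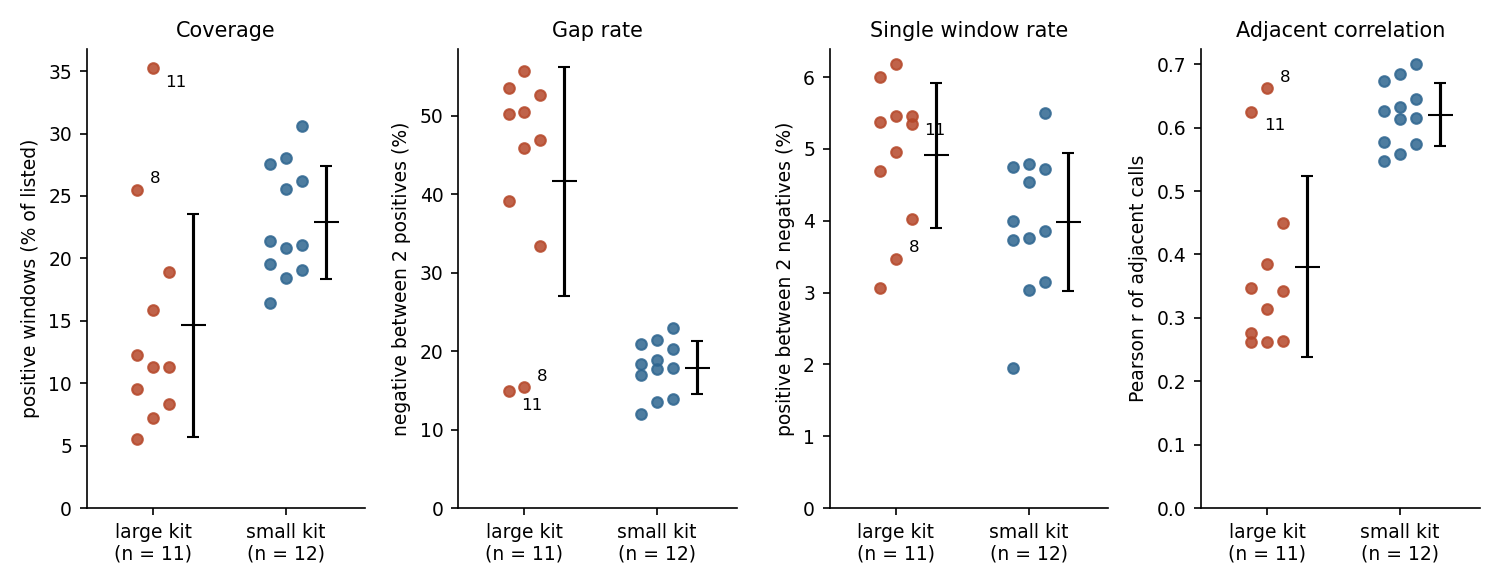
Coverage, gap rate, single window rate and adjacent correlation of each library, with 1 point per library, the mean and SD beside the points, and large kit replicates 8 and 11 numbered. In gap rate the 9 unnumbered large-kit libraries, at 33.3% to 55.7%, sit above all 12 small-kit libraries.

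Calls of adjacent windows were accordingly less alike in the large kit. The adjacent correlation, Pearson's r between the call of a window and that of the next window, was 0.261 at the lowest, 0.343 at the median and 0.662 at the highest in the large kit, against 0.548, 0.620 and 0.70 in the small kit. The groups did not overlap apart from replicates 8 and 11 of the large kit, at 0.662 and 0.625. The mean difference was -0.24 (permutation p = 0.00016, adjusted p = 0.001), and it was -0.14 with coverage as a covariate (permutation adjusted p = 0.0016).

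Windows that were positive between negative neighbours differed less between the kits. The single window rate, the percentage positive among windows with negative calls on both sides, had a lowest value of 3.07%, a median of 5.34% and a highest value of 6.18% in the large kit, against 1.96%, 3.93% and 5.50% in the small kit. The groups overlapped over most of their range, with 2 large-kit libraries above every small-kit library. The difference of 0.93 points did not pass the threshold of 0.05 (permutation p = 0.035, adjusted p = 0.0526). It passed with medians, at 1.41 points, and with coverage as a covariate, at 1.30 points. It did not pass with permutation within plate rows (adjusted p = 0.129), nor when any of 16 libraries was left out (permutation adjusted p up to 0.0984). It passed, at 0.99 to 1.11 points, when any of 7 libraries was left out, namely large kit replicates 4, 6 and 8 and small kit replicates 1, 7, 10 and 11.

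Positive windows of the large kit lay mostly in short runs. Runs of 1 window held 33.9% ± 15.2 of the positive windows of a large-kit library (SD, n = 11) and 12.2% ± 2.98 of those of a small-kit library (SD, n = 12). For runs of 10 to 24 windows the shares were 7.22% ± 10.6 and 24.4% ± 4.70, and for runs of 25 or more windows they were 1.93% ± 4.28 and 7.0% ± 4.76. The long runs of the large kit came largely from replicates 8 and 11, of which the windows in runs of at least 5 made up 16.6% and 23.1% of the genome, against 0.505% to 6.18% in the other 9.

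The mean run was 58.4 kb at the lowest, 69.0 kb at the median and 164.7 kb at the highest in the large kit and 109.3 kb, 137.8 kb and 182.6 kb in the small kit. Again 9 large-kit libraries lay below all small-kit libraries, and replicates 8 and 11, at 158.8 kb and 164.7 kb, did not. The difference of means was -54.9 kb (permutation adjusted p = 0.0039), and -23.0 kb with coverage as a covariate. Windows in runs of at least 5, or 200 kb, covered 5.14% ± 7.61 of the genome in the large kit (SD, n = 11) and 13.5% ± 3.95 in the small kit (SD, n = 12), a difference of -8.40 points (permutation adjusted p = 0.00965). This difference did not pass with coverage as a covariate, where it was -1.60 points (permutation adjusted p = 0.108).

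Windows in runs of 1 or 2, in contrast, covered more of the genome with the large kit. They made up 6.47% ± 1.33 of listed windows in large-kit libraries (SD, n = 11) and 5.24% ± 1.04 in small-kit libraries (SD, n = 12). The difference of 1.23 points passed narrowly (permutation adjusted p = 0.0374) and no longer did when labels were permuted within plate rows only (adjusted p = 0.0556). It also fell short, at 1.02 to 1.19 points, when any of 11 libraries was left out, namely large kit replicates 1, 2, 3, 5, 7 and 10 and small kit replicates 4, 5, 6, 8 and 12.

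Lower correlation in the large kit reached beyond the next window. At 80 kb the correlation between calls was 0.32 ± 0.13 in the large and 0.55 ± 0.05 in the small kit, at 1 Mb it was 0.16 ± 0.08 and 0.28 ± 0.05, and at 4 Mb it was 0.09 ± 0.05 and 0.14 ± 0.04 (SD, n = 11 and n = 12). At each of the 6 distances from 80 kb to 4 Mb, 9 large-kit libraries lay below all small-kit libraries. The mean difference passed at all 6 of them, with adjusted p from 0.00064 at 80 kb to 0.0185 at 4 Mb (permutation tests over 8 distances). At 10 and 20 Mb it was -0.03 and -0.03 and did not pass (permutation adjusted p = 0.0592 and 0.0998). The ratio of the large-kit to the small-kit mean was 0.586 at 80 kb, 0.575 at 1 Mb and 0.641 at 4 Mb.

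**Figure D2:**
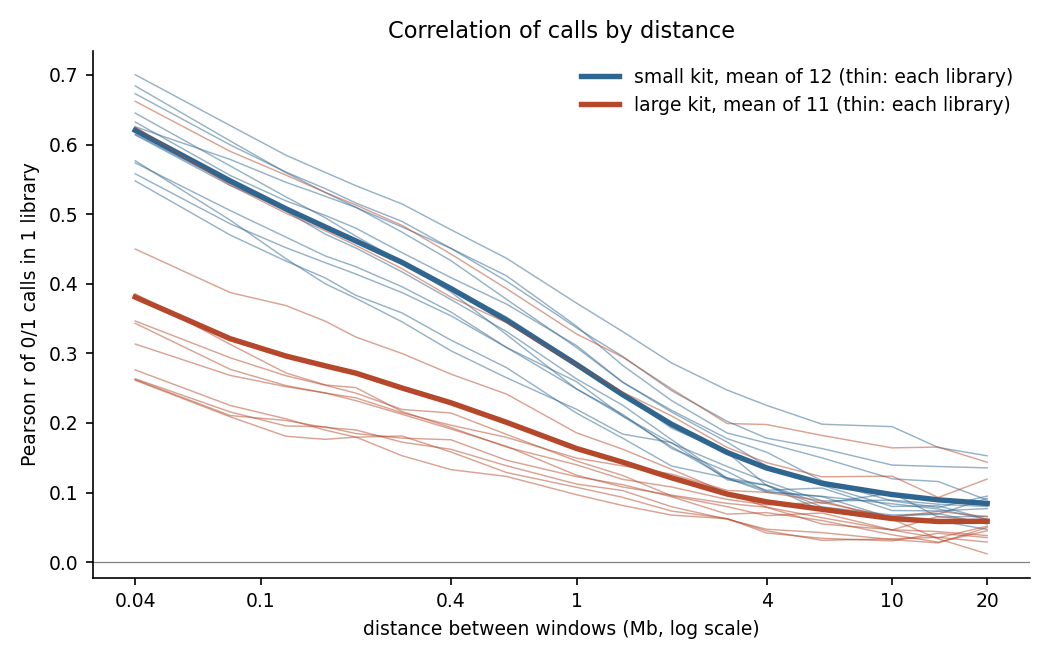
Pearson's r between the 0/1 calls of windows of 1 chromosome against the distance between them in Mb on a log scale, with a thin line per library and a thick line per group mean. The large-kit mean lies below the small-kit mean from 80 kb (0.32 against 0.55) to 20 Mb, and 2 large-kit lines run among those of the small kit.

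In larger windows the coverage of the kits lay closer together. When autosomal windows were merged and a merged window was counted as positive if any window in it was, coverage at 40 kb was 15.3% ± 8.98 in the large and 24.3% ± 4.75 in the small kit (SD, n = 11 and n = 12). At 1000 kb it was 56.4% ± 10.2 and 60.9% ± 7.54, and at 2000 kb 67.6% ± 9.24 and 72.0% ± 7.68. The ratio of the means rose from 0.628 at 40 kb through 0.82 at 200 kb to 0.94 at 2000 kb. Large-kit libraries below every small-kit library numbered 8 at 40 kb, 3 at 200 kb and 1 at 2000 kb. In this family of 7 window sizes, chosen after the data were seen, no difference passed, with permutation adjusted p from 0.0504 at 40 and 80 kb to 0.239 at 1000 and 2000 kb, and the change of the ratio with window size was not itself tested. A merged window needs only 1 positive call, so coverage can only rise with window size. The difference at 40 kb passed where coverage was adjusted over the 15 measures (permutation adjusted p = 0.0157 over autosomes).

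**Figure D3:**
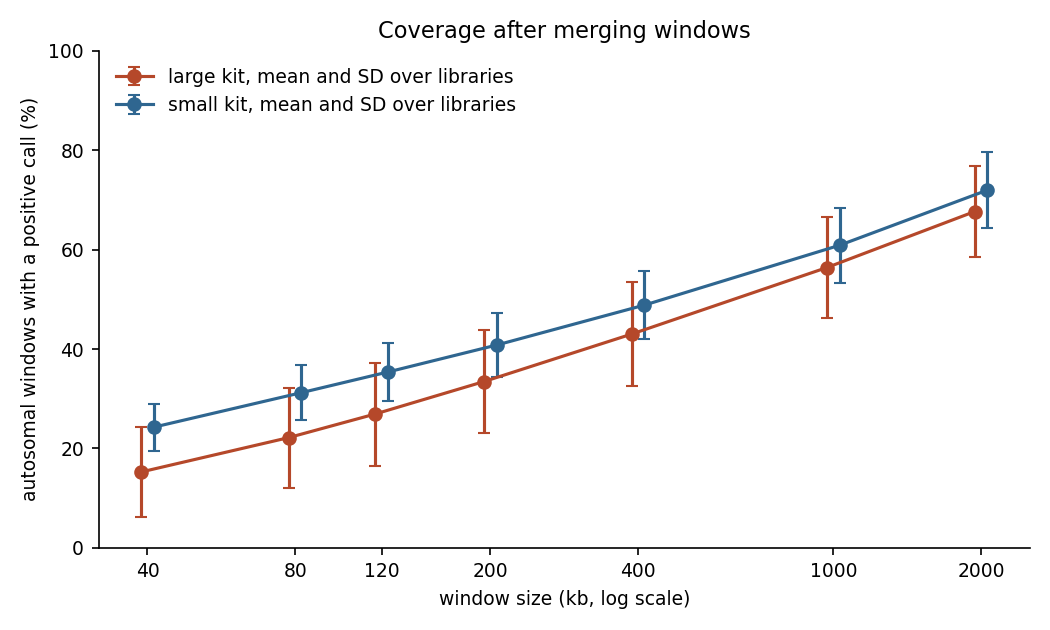
Percentage of autosomal windows with a positive call against window size in kb on a log scale, with the mean and SD over the 11 large-kit and 12 small-kit libraries. The means are 15.3% and 24.3% at 40 kb and 67.6% and 72.0% at 2000 kb, with overlapping SD bars.

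Gaps were related to coverage among most large-kit libraries. Replicates 8 and 11 lay outside the range of the others in both measures and were left out, a choice made after the data were seen. Over the other 9 large-kit libraries gap rate fell with coverage. Pearson's r was -0.92 (exact permutation p = 0.000785, adjusted p = 0.00589) and Spearman's rho -0.883 (exact permutation p = 0.00308, adjusted p = 0.00615). When replicates 4 and 7, farthest of the 9 from the median in coverage, were left out as well, r was -0.969. Replicates 8 and 11 went in the same direction. They had the highest coverage of the large kit, at 25.5% and 35.3%, and its lowest gap rates, at 15.5% and 14.9%. In the 12 small-kit libraries neither coefficient passed, with r at -0.374 (permutation p = 0.229, adjusted p = 0.262) and rho at -0.301 (permutation p = 0.34, adjusted p = 0.34), and r was -0.0768 without replicates 6 and 7.

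Single window rate rose with coverage in the same 9 large-kit libraries. Pearson's r was 0.877 (exact permutation p = 0.00221, adjusted p = 0.00589), and 0.906 without replicates 4 and 7. Spearman's rho was 0.90 (exact permutation p = 0.00203, adjusted p = 0.00589). Replicates 8 and 11 did not carry the rise further. Their rates were 3.47% and 5.46% at coverages of 25.5% and 35.3%, inside the range of 3.07% to 6.18% of the other 9. The relation was not computed over all 11 and is stated for the 9 only. In the small kit the coefficients were 0.503 for Pearson's r (permutation p = 0.0947, adjusted p = 0.151), 0.483 for Spearman's rho (permutation p = 0.115, adjusted p = 0.154) and 0.589 for r without replicates 6 and 7. Adjustment was over these 8 tested coefficients. Both measures are computed from the same calls as coverage, and the difference between the kits in either slope was not tested. Libraries of like coverage did not all differ the same way. Large kit replicate 7, at 18.9% coverage, had a gap rate of 33.3%, while small kit replicates 1, 3 and 12, at 19.1%, 19.6% and 18.4% coverage, had 21.4%, 20.9% and 17.9%. Large kit replicate 8, at 25.5% coverage, had a gap rate of 15.5%, below the 18.4% of small kit replicate 9 at 25.6% coverage.

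**Figure D4:**
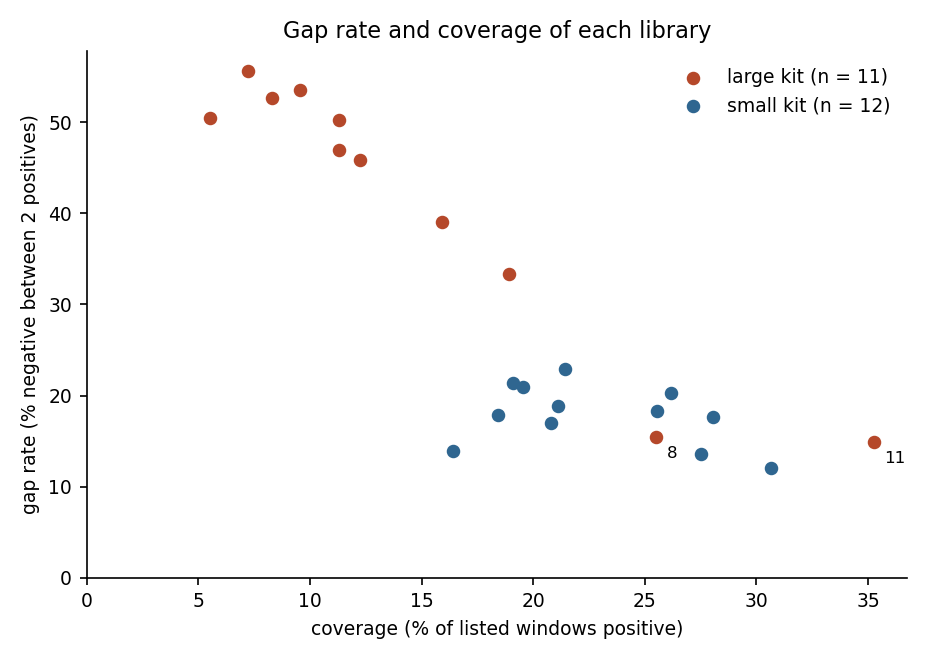
Gap rate in percent against coverage in percent, with 1 point per library and large kit replicates 8 and 11 numbered. The 9 unnumbered large-kit libraries range from 55.7% at a coverage of 7.21% to 33.3% at 18.9%, and the small-kit libraries stay between 12.03% and 22.9%.

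Gaps of the large kit were spread over the genome. Pooled over the libraries of a group, the gap rate was higher in the large than in the small kit on all 20 chromosomes from 1 to 19 and X, with 22.3% to 37.8% in the large and 15.1% to 20.7% in the small kit. These pooled values are weighted towards libraries with many positive windows, above all replicates 8 and 11. In windows that overlap a protein-coding gene the pooled gap rates were 28.7% and 16.6%, and in windows that do not they were 28.6% and 18.6%. Over 5 classes of windows by GC content, the mean gap rate per library lay between 39.9% and 44.2% in the large kit and between 16.7% and 19.3% in the small kit, so the kits were farther apart than any GC class was from another within a kit.

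The bases in the gaps differed a little between the kits. Gap windows of large-kit libraries had a GC content 0.16 ± 0.35 points above that of positive windows between positive neighbours (SD, n = 11), and those of small-kit libraries lay 0.20 points below (-0.20 ± 0.25, SD, n = 12). The difference between the kits was 0.36 points (permutation adjusted p = 0.0154). The kits overlapped, with 3 of 11 large-kit and 9 of 12 small-kit libraries below 0. The 3 large-kit libraries were replicates 7, 8 and 11, which had the highest coverage of that kit. The share of bases in coding-gene exons differed in the same direction, by 0.31 points (permutation adjusted p = 0.0163). Neither difference was examined with coverage as a covariate.

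The isolated positive windows differed in kind as well. Windows without a positive neighbour had a GC content 0.62 points below that of windows in runs of at least 5 in the small kit (-0.62 ± 0.34, SD, n = 12), where every library was below 0. In the large kit the mean was near 0 (-0.02 ± 0.66, SD, n = 11), with libraries on both sides, from -0.77 to 1.24 points. The difference of 0.60 points passed (permutation adjusted p = 0.018). Exon content, compared in the same way, was -0.48 ± 0.24 points in the small and 0.08 ± 0.56 points in the large kit, a difference of 0.56 points (permutation adjusted p = 0.00786). Neither passed with coverage as a covariate (permutation adjusted p = 0.151 and 0.154), and the exon difference did not pass with medians (permutation adjusted p = 0.0632).

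The make-up of the whole set of positive windows was not shown to differ. Positive windows exceeded the autosomal mean of 41.9% GC by 0.17 ± 0.22 points in the large and 0.30 ± 0.20 points in the small kit (permutation adjusted p = 0.206). The share of positive windows with a protein-coding gene exceeded the autosomal share of 53.9% by 3.76 ± 1.95 and 4.58 ± 1.39 points (permutation adjusted p = 0.292). The X chromosome, of which cells of this male line hold a single copy, was covered at 0.76 ± 0.40 of the autosomal level in the large kit and 0.58 ± 0.39 in the small kit (permutation adjusted p = 0.312).

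Autosomes were sampled unevenly in both kits. The SD of coverage over the 19 autosomes, divided by their mean, was 0.53 ± 0.11 in the large and 0.46 ± 0.14 in the small kit (permutation adjusted p = 0.292). Without small kit replicate 4 this difference, at 0.0983, passed (permutation adjusted p = 0.0478). Libraries of a kit shared few windows beyond chance. The correlation of calls between pairs of libraries averaged 0.016 among large-kit pairs, 0.022 among small-kit pairs and 0.020 between kits (permutation adjusted p = 0.341 for the difference between the first and the second). Without large kit replicate 8 this difference was -0.00999 (permutation adjusted p = 0.0177).

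No chromosome passed the test after coverage was divided out (0 of 21, 0% called; permutation tests adjusted over 21 chromosomes). An unadjusted p under 0.05 was found for 2 chromosomes, 18 and 4. With coverage subtracted instead of divided out, 0 of 21 passed as well, but the unadjusted p was under 0.05 for X and Y (permutation p = 0.0284 and 0.0227, adjusted p = 0.298 for both) and not for 18 and 4 (permutation p = 0.0583 and 0.0811). X and Y were themselves lower in the large kit, at 12.9% against 13.96% and 2.17% against 3.87% of their windows, while the autosomes were lower by 9.02 points (-9.02). Y, at 3.87% in the small kit, could not have fallen by that much, so its subtracted value is not read as a difference. Chromosome 18 was covered at 0.71 ± 0.37 of the autosomal level in the large and 1.13 ± 0.36 in the small kit (permutation p = 0.013, adjusted p = 0.274). For chromosome 4 the values were 0.79 ± 0.36 and 1.17 ± 0.47 (permutation p = 0.0366, adjusted p = 0.385). On both chromosomes the ranges of the kits overlapped.

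No window differed between the kits past the threshold. Of 53969 windows positive in at least 3 of the 23 libraries, 0 (0%) passed Fisher's exact test after Benjamini-Hochberg adjustment. In simulated data the same test recovered 196 of 200 windows that were positive in 2% of large-kit and 98% of small-kit libraries, and 61 of 200 windows that were positive in 10% of large-kit and 80% of small-kit libraries. Both sets were changed at once, which eases the Benjamini-Hochberg threshold, so these recoveries do not hold for a window that differs alone. At an unadjusted p under 0.05 there were 1569 windows (2.91%) lower and 185 windows (0.343%) higher in the large kit. With the overall odds ratio of the kits as the null, still 0 passed, and the unadjusted counts turned to 166 lower and 1117 higher, so their direction rests on the null that is set.

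The windows with the lowest p below and above are named by rule, and each had an adjusted p of 1. The window chr3:54360001-54400000 (mm9), without a protein-coding gene, was positive in 0 of 11 large-kit and 9 of 12 small-kit libraries (Fisher's exact p = 0.000337), as was chr11:8600001-8640000. The window chr1:24600001-24640000, which overlaps the predicted genes Gm10222 and Gm10925, was positive in 1 and 10 libraries, as was chr6:37600001-37640000 (Fisher's exact p = 0.000644). These windows are not rare ones, since they were positive in 53 to 127 libraries of the whole series.

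In the other direction, chrX:139080001-139120000, which overlaps Tmem164, a gene for a transmembrane protein, was positive in 7 of 11 large-kit and 0 of 12 small-kit libraries (Fisher's exact p = 0.00135). The window chr2:168320001-168360000, in Nfatc2, a gene for a calcium-regulated transcription factor of the NFAT family, was positive in 6 and 0 libraries, as were chr2:47760001-47800000 and chr2:99720001-99760000, both without a protein-coding gene (Fisher's exact p = 0.00458).

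Bins of 1 Mb gave no call either. Of 2399 autosomal bins of 25 windows, 0 (0%) passed limma's moderated test on the bin's percentage minus that of all autosomes in the same library (Benjamini-Hochberg adjustment). Without adjustment 92 bins (3.83%) were past 0.05, 47 of them lower and 45 higher in the large kit. On a log2 scale 0 bins passed and 98 were past 0.05 without adjustment, 32 lower and 66 higher, so the balance of directions rests on the scale. In simulated data of this size limma recovered 39 of 100 bins shifted by 30 points and 90 of 100 shifted by 45 points. Both sets of bins were again changed at once, so these recoveries do not hold for a bin that differs alone. The lowest bins by rule were chr18:3000001-4000000, positive at 10.5% in the large and 53.3% in the small kit, and chr15:3000001-4000000, at 3.64% and 50.3% (limma adjusted p = 0.759 for both). The highest were chr2:171000001-172000000, at 33.1% and 9% (limma adjusted p = 0.759), and chr16:65000001-66000000, at 36.4% and 12.7% (limma adjusted p = 0.991).

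A few windows were positive again and again without a neighbour. In the large kit, chr9:3000001-3040000, at the start of the listed sequence of chromosome 9 and over 12 predicted Gm genes, was positive in 11 of 11 libraries and single in 10 of them, and it was single in 8 small-kit libraries. The window chr6:103560001-103600000, in Chl1, a gene for a neural cell adhesion protein, was positive in all 23 libraries and single in 9 of each kit. The window chr17:39960001-40000000, without a protein-coding gene, was single in 9 large-kit and 7 small-kit libraries.

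In the small kit the window most often single was chr12:3080001-3120000, without a protein-coding gene, in 11 of 12 libraries, and it was single in 5 large-kit libraries. The window chr4:34880001-34920000, which overlaps Mob3b, a gene of the MOB kinase activator family, was single in 8 small-kit and 4 large-kit libraries. These windows were common in the whole series, from 149 to 247 libraries. In all, 572 autosomal windows were single in 3 or more large-kit libraries and 342 in 3 or more small-kit libraries. For 5 or more libraries the order was the other way, with 12 and 18 windows.

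Fewer windows were sampled repeatedly by the large kit. Of 61816 autosomal windows, 81.6% were positive in at least 1 large-kit library and 92.5% in at least 1 small-kit library. With each library left out in turn the shares were 73.3% to 80.9% and 91.1% to 92.0%, so the ranges did not overlap. The share positive in at least 3 libraries was 23.9% in the large and 58.6% in the small kit, and 266 and 3848 windows were positive in at least 6 libraries.

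Where windows had positive neighbours in 3 or more libraries of a kit, they were seldom always missing. Of 2866 such windows in the large kit, 67 (2.34%) were negative each time and 894 (31.2%) positive each time. Of 19335 in the small kit, 92 (0.476%) were negative each time and 10074 (52.1%) positive each time.

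Normalized linkage disequilibrium (D′), the measure from which GAM contact maps are made, was lower at short range in the large kit. Over pairs of autosomal windows that were each positive in at least 3 libraries of a kit, the mean D′ of adjacent windows was 0.641 in the large kit (0.613 to 0.663 with each library left out in turn) and 0.782 in the small kit (0.78 to 0.795). At 400 kb it was 0.446 (0.412 to 0.478) and 0.537 (0.531 to 0.556). At 2 Mb the means were 0.268 and 0.264, with overlapping ranges of 0.227 to 0.308 and 0.257 to 0.286. At 4 Mb the mean was higher in the large kit, at 0.204 (0.164 to 0.243) against 0.162 (0.155 to 0.185), and the ranges again overlapped. The pairs rest on 7241 windows with their neighbours in the large and 28573 in the small kit, so the kits were compared over different pairs, and no test was made.

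Most genes were detected less often with the large kit. For each gene the percentage of its windows that were positive was averaged over the libraries of a kit, and it was lower in the large kit for 16116 of 22225 protein-coding genes (72.5%). The median difference over all these genes was -9.60 points. GAM detects DNA and not transcripts, so these values say how often a gene was sampled and nothing of its activity, and the lists below have no test.

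Of the pluripotency genes, which keep embryonic stem cells undifferentiated, 21 of 22 listed were matched and 18 were lower in the large kit, with a median difference of -11.4 points. Sox2, for a partner of Oct4 on DNA, was positive in 0 of 11 large-kit and 3 of 12 small-kit libraries. Nanog, a core factor, and Zfp42, a marker of undifferentiated cells, were each positive in 2 and 3, Tdgf1, a co-receptor for Nodal, in 2 and 4, and Esrrb, an orphan nuclear receptor that spans 5 windows, was touched in 4 and 5. Pou5f1, which encodes Oct4, and Klf4, a zinc finger factor, were positive in 2 large-kit libraries and 1 small-kit library each, and Dppa3, a maternal factor also made in naive cells, in 3 and 1.

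Housekeeping genes were lower in the large kit in 13 of 16 cases, with a median difference of -17.6 points. Actb, for cytoplasmic actin, was positive in 0 of 11 and 3 of 12 libraries, and Eef1a1, for a translation elongation factor, in 1 and 5. Gapdh, for a glycolytic enzyme, was positive in 2 libraries of each kit, and Polr2a, for the largest subunit of RNA polymerase II, was touched in 6 of each.

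HOX genes, which set identity along the body axis and lie in clusters, were lower in the large kit in 31 of 39 cases, with a median difference of -10.2 points, and many of them share windows. Hoxd13 was positive in 3 of 11 large-kit and 5 of 12 small-kit libraries, while Hoxb1 and Hoxc13 were positive in 5 libraries of each kit. Of 1113 olfactory receptor genes, which lie in large tandem arrays, 701 (63.0%) were lower in the large kit, with a median difference of -7.58 points.

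Long neuronal genes each span many windows, so gaps could be counted within a gene. Of 20 genes, 14 were lower in the large kit, with a median difference of -3.58 points, and 12 were higher and 8 lower when only the window holding the start of the gene was counted (median 1.52 points). Pooled over all 20 genes, 205 of 535 windows between positive neighbours were gaps in the large kit (38.3%) and 205 of 1059 in the small kit (19.4%). The pooled gap rate was higher in the large kit in 17 of the 20 genes, with Lrp1b, for a receptor of the LDL receptor family, and Lsamp among the exceptions. It was also higher on all 20 chromosomes from 1 to 19 and X. In windows with a protein-coding gene it was 28.7% against 16.6%, so the direction was not particular to these genes. With each library left out in turn, the pooled rate of the long genes was 35.6% to 43.6% in the large and 18.5% to 20.6% in the small kit, and 15 to 18 of the 20 genes were higher in the large kit. Both named exceptions leaned on large kit replicates 8 and 11. With all libraries the rate of Lrp1b was 25.4% in the large and 33.3% in the small kit. Without replicate 8 it was 33.3% in both, and without replicate 11 it was 32.4% against 33.3%. Lsamp turned without replicate 11.

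Ptprd, for a receptor tyrosine phosphatase of synapses, spans 58 windows (chr4:75587142-77857865, mm9). It was positive over 0% to 32.8% of its windows in large-kit libraries, with a median of 15.5%, and over 0% to 51.7% in small-kit libraries, with a median of 32.8%. Its longest run was 280 kb in the large kit, in replicate 11, and 680 kb in the small kit, and 21 of 34 and 20 of 109 windows between positive neighbours were gaps. The kits overlapped, and at least 1 window of the gene was positive in 9 of 11 and 11 of 12 libraries.

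Dlg2, for a postsynaptic scaffold protein (chr7:97650473-99595513, 49 windows), was touched in 9 of 11 large-kit and 7 of 12 small-kit libraries. Its coverage reached 22.4% at most in the large and 57.1% in the small kit, with longest runs of 160 kb, in large kit replicate 3, and 440 kb, in small kit replicate 7. Without these libraries the longest runs were 80 kb and 320 kb, and the median over all libraries was 80 kb in the large and 40 kb in the small kit. Of the windows between positive neighbours, 10 of 13 were gaps in the large and 6 of 37 in the small kit.

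Cntnap2, for a neurexin-like adhesion protein (chr6:45010060-47251368, 57 windows), was touched in 7 large-kit and 5 small-kit libraries. Of its windows between positive neighbours, 20 of 57 and 9 of 53 were gaps. Most of these windows came from few libraries. In the large kit 20 lay in replicate 11, 15 in replicate 3 and 14 in replicate 1, and in the small kit 29 lay in replicate 12, 14 in replicate 2 and 9 in replicate 8.

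Lsamp, for a limbic adhesion protein (chr16:41532971-42181792, 17 windows), had a lower pooled gap rate in the large kit, with 4 of 22 windows between positive neighbours as gaps, against 6 of 20 in the small kit. Without large kit replicate 11 it was 4 of 9, or 44.4%, above the 30% of the small kit. The gene was touched in 8 large-kit and 6 small-kit libraries. Its longest run was 600 kb in the large kit, in replicate 11, and 280 kb in the small kit, whereas the next large-kit library, replicate 8, reached 200 kb.

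**Figure D5:**
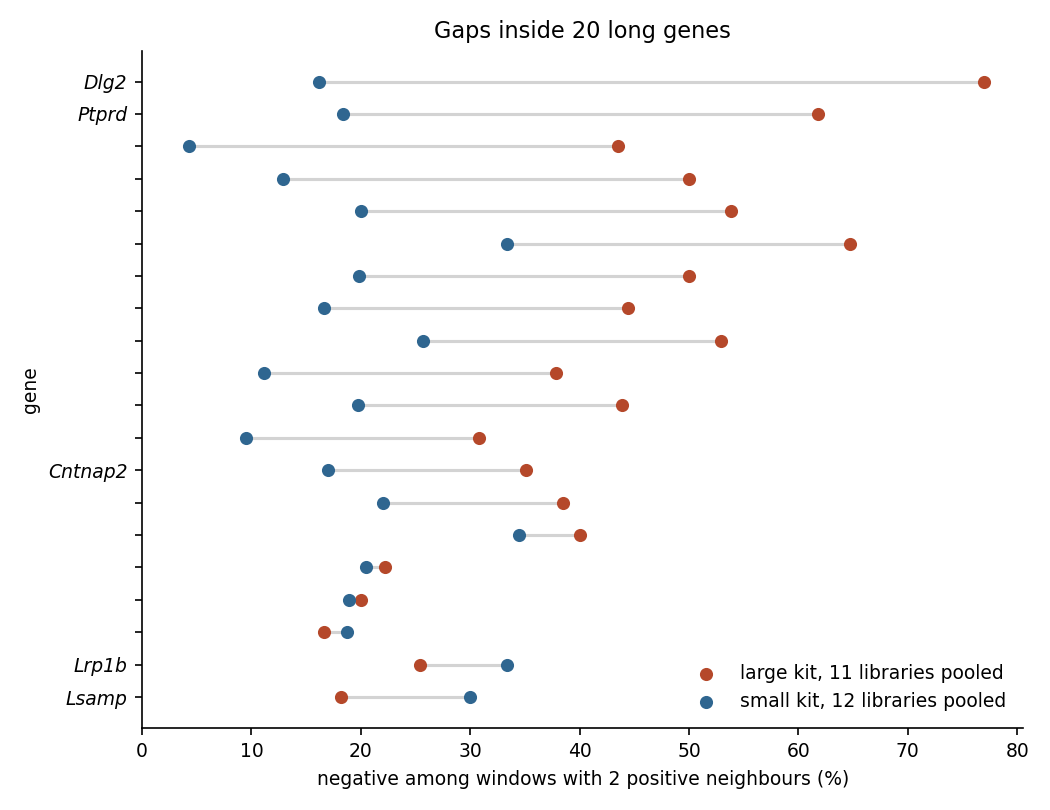
Gap rate in percent inside each of 20 long genes, pooled over the 11 large-kit and the 12 small-kit libraries, with 1 row per gene ordered by the difference and the genes described in the text labelled. The large kit is higher in 17 genes, most of all in Dlg2, at 76.9% against 16.2%, and lower in 3, of which Lsamp turned without large kit replicate 11.

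Set beside the rest of the series, the large kit was the group at the end of the scale. Its mean gap rate was the highest of the 20 groups of the series and its mean adjacent correlation the lowest, while the small kit ranked 14 and 7 from the top in these measures. Other groups lay close to it. In gap rate the large kit averaged 41.6% ± 14.6 (SD, n = 11). Protocols b and a of the reagent volume experiment averaged 37.2% ± 16.0 (SD, n = 11) and 37.2% ± 9.84 (SD, n = 10). The unstained libraries of the eosin test averaged 33.4% ± 10.1 (SD, n = 18). Of the 11 large-kit libraries, 4 had a gap rate above the 95th percentile of the 226 libraries of other experiments, which was 50.3%, and 0 of the 12 small-kit libraries did. Experiment and plate cannot be told apart from the kit in these comparisons.

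The cresyl violet experiment had 10 libraries without stain, made with the same reagent volumes but frozen overnight during preparation. Against these the gap rate of the large kit was higher by 27.2 points (permutation adjusted p = 0.00028) and the adjacent correlation lower by 0.29 (-0.29, permutation adjusted p = 0.00052). The single window rate was higher by 1.52 points (permutation adjusted p = 0.0205). For the small kit the gap rate was higher by 3.47 points (permutation adjusted p = 0.0455), while the adjacent correlation, at a difference of -0.05, and the single window rate, at 0.59 points, did not pass (permutation adjusted p = 0.0846 and 0.284). The cresyl violet libraries averaged 14.4% ± 3.75 in gap rate (SD, n = 10).

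The 11 libraries of protocol b of the reagent volume experiment also had these volumes, and their caps had been stored frozen. Against them, at a gap rate of 37.2% ± 16.0 (SD, n = 11), the large kit was not shown to differ, with a difference of 4.42 points (permutation adjusted p = 0.505) in gap rate, -0.03 (permutation adjusted p = 0.658) in adjacent correlation and -0.75 points (permutation adjusted p = 0.658) in single window rate. The difference of medians in gap rate was 19.6 points and did not pass either (permutation adjusted p = 0.122), so neither value shows that the groups were alike. The small kit differed from protocol b in gap rate by -19.3 points (permutation adjusted p = 4e-05) and in adjacent correlation by 0.21 (permutation adjusted p = 8e-05), and not in single window rate (permutation adjusted p = 0.10). Protocol b libraries lay between 20.9% and 69.7% in gap rate, so they overlapped both kits.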

How the data were processed

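Per the paper's methods and the labels, the authors aligned reads to mm9 with Bowtie2 2.1, removed duplicates with Samtools, and called 40 kb windows positive with GAMtools at a threshold of 4 reads that was the same for all libraries. The deposited values are calls of 1 (positive) or 0 for each window and library, with no reads or depth, and no count model was used. A set minimum of reads makes a call depend on depth, which is unknown here. All columns matched a library name in the labels and 0 were left over. Groups came from sample titles; replicate numbers only name libraries. The members, gene lists and tests were chosen with earlier results of these data known. Table ends equal the chromosome lengths of NCBIM37 (mm9) for all 21 chromosomes; GC content, exons and genes came from that genome and GENCODE vM1. GC was computed for windows with at least 10000 sequenced bases, and 22225 protein-coding genes were used.

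Group means were compared by two-sided permutation of libraries (100000 seeded resamples; the smallest p is 1e-05), or exactly below 10 libraries. Benjamini-Hochberg adjustment ran over 15 library measures, 8 distances, 21 chromosomes, 8 contrasts with other experiments (4 for gap rate, added later), 7 window sizes or 2 gap compositions, at 0.05. Under an alternative, the new p of a library measure was adjusted beside the main p-values of the other measures, which were not recomputed for it. Windows positive in at least 3 libraries were tested with Fisher's exact test, and 1 Mb bins with limma 3.58.1 in R 4.3.3. Other work used Python 3.11.15, NumPy 2.4.6 and SciPy 1.17.1. Named features were the 4 windows of lowest p each way, the 3 windows most often single per kit, the 2 bins at each end, fixed genes of each list (3 of them are not reported here), and the 2 chromosomes of lowest p with X. Scripts were tested on simulated data. Merged windows, gap composition and position, gaps in long genes (with each library left out), run classes, the relation to coverage and the gap rates of other groups were added after seeing the data.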

Additional observations from a re-analysis of the deposited data

Results flagged for a closer look

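Among the 10 unstained cresyl violet libraries used for comparison, 1 library lay far from the rest, at the lowest adjacent correlation of 0.54. The highest gap rate of these 10 libraries, 23.8%, likewise lay far from the others. Such a gap arises by chance in about 1 in 20 groups, and the kit groups, with 11 and 12 libraries, are too large for the rule used.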

How the results depend on the processing

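No paired analysis was possible because the replicate numbers were given in accession order and pair no libraries. Gap rate, adjacent correlation, neighbour share (positive windows with a positive neighbour), mean run length and coverage kept their direction and stayed past the threshold under every alternative listed for them, except that the coverage of autosomes, past the threshold over the 15 measures, missed it in the added family of 7 window sizes (adjusted p = 0.0504). With each library left out in turn the differences ranged from 22.3 to 26.4 points for gap rate, -0.27 to -0.23 for adjacent correlation, -24.3 to -20.2 points for neighbour share, -62.9 to -51.0 kb for mean run length and -10.3 to -7.34 points for coverage. With coverage as a covariate, neighbour share differed by -10.7 points in place of -21.8, and long run coverage (-1.60 points), single window GC difference (0.43 points) and single window exon difference (0.32 points) no longer passed, single window rate passed (1.30 points), and the difference in chromosome spread changed sign (-0.00546). With medians, the exon difference no longer passed (0.38 points) and single window rate passed (1.41 points). Within plate rows short run coverage, at the same 1.23 points, no longer passed. Without single libraries the range was 1.02 to 1.47 points for short run coverage, 0.74 to 1.11 points for single window rate, 0.0446 to 0.0983 for chromosome spread, which passed only without small kit replicate 4, and -0.00999 to -0.00337 for the similarity of libraries, which passed only without large kit replicate 8. Over windows positive in at least 25 libraries of the series that similarity changed sign (0.00033). Counting only the window with the start of the gene turned the median of the long neuronal genes to 1.52 points. The causes of these changes were not tested. All values with coverage as a covariate rest on 1 slope for both kits, although 8 large-kit libraries lay below every small-kit library in coverage. Calls without reads leave the depth of each library unknown, so a low read number and missing DNA cannot be told apart.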
